A study of Mus musculus with 12 samples.

Results

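The MD(ND2bHLH)WCS mutant, called WCS here, bound 1829 regions of the mouse genome at which none of the other 4 proteins of the study had a listed site. These WCS-alone regions were found by pooling the deposited binding sites of all 5 transduced groups and merging sites that overlapped by at least 1 base. A merged region was kept where each of its sites came from the WCS list. They are 1829 of 60136 merged regions, and each of the 1829 consists of a single WCS site. They make up 8.14% of the 22462 WCS sites (95% exact Clopper-Pearson interval 7.79 to 8.51%), and 52.2% of all merged regions were held by 1 list.

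The sites come from chromatin immunoprecipitation followed by sequencing (ChIP-seq), in which DNA bound by a protein is recovered with an antibody and sequenced. All groups are P19 cells, a mouse embryonal carcinoma line that can be driven into neuronal or muscle fates. Cells were transduced with MD(ND2bHLH)WCS, MD(ND2bHLH)WC (WC), the parent MD(ND2bHLH) chimera, NeuroD2 or MyoD, or were left untransduced as negative controls. The chimera is MyoD carrying the basic helix-loop-helix (bHLH) domain of NeuroD2, WC and WCS are mutants of it, and the labels do not say what the letters W, C and S stand for. The WCS, WC, chimera and MyoD groups each have a library made with MyoD antibody 6196 and a library made with MyoD antibody 6975. NeuroD2 cells were precipitated with NeuroD2 antibodies 1165 and 1240, and untransduced cells with antibodies 1240 and 6975. Each protein was supplied by infection, so the sites are those of an introduced protein in a cell line. Both libraries of a group share 1 list, so no spread between replicates exists and no test between proteins was possible. Intervals in the text cover counting error only. The depth of the libraries is unknown, and sites of the untransduced cells were not analysed here.

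MyoD is the bHLH transcription factor that directs skeletal muscle differentiation, and NeuroD2 is a bHLH factor that acts in neuronal differentiation. Such factors bind as dimers with E proteins to short DNA elements called E-boxes, and the basic part of the domain contacts the DNA. Factors of the family share many elements but differ in which E-boxes and which neighbouring partner sites they use. Neither the DNA sequence nor the genes of the WCS-alone regions could be given, because the coordinates are in build mm9 and no mm9 sequence or annotation was used here.

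WCS had the smallest share of sites that no other list held. The share was 8.14% for WCS, 14.0% for WC (3795 of 27045 sites), 13.7% for the chimera (1972 of 14375), 33.1% for NeuroD2 (10412 of 31458) and 53.6% for MyoD (13371 of 24935). These shares follow from the merging itself and are given as a description. In bases, the WCS-alone regions covered 451 kb, which is 5.57% of the bases in the WCS list. The corresponding share of bases was 10.6% for WC-alone and 11.7% for chimera-alone regions. The other lists of the merge set the number: with the WC list set aside 4012 regions were held by WCS alone, and with the NeuroD2 list set aside 3025. The 2151 regions of WCS and WC alone exceeded the WCS-alone regions in number. A further 1182 regions were shared by WCS and NeuroD2 alone, 264 by WCS and MyoD alone and 111 by WCS and the chimera alone.

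The WCS-alone sites lay at the bottom of the WCS list by the value that the authors gave each site. This value is a score whose unit is not named in the files or labels, and it was used here to rank sites and to set bins. The merging did not read it, but all 5 lists begin just above a value of 5, so a site is listed, or missing from another list, according to this score. The low values of the class are therefore not independent of its choice and are given as a description. In the WCS list the median value was 6.05 for WCS-alone sites, with quartiles of 5.43 and 6.93, and 10.8 for the other 20633 WCS sites, with quartiles of 7.10 and 20.2. The lowest value was 5.03 in both classes, which is the floor of the list, and percentile 5 was 5.03 for WCS-alone and 5.36 for the other WCS sites. The median WCS-alone site stood at percentile 15.8 of the WCS list.

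When the WCS list was divided into 10 equal groups by value, the share of sites held by WCS alone declined in each step up to decile 8. It was 27.8% in decile 1 (values 5.03 to 5.70; 625 of 2247 sites), 22.0% in decile 2, 13.6% in decile 3, 9.53% in decile 4, 5.74% in decile 5, 2.27% in decile 6 and 0.445% in decile 7. Deciles 8, 9 and 10 held 1, 0 and 0 WCS-alone sites. The lowest 3 deciles contained 1424 of the 1829 sites, or 77.9%, and the lowest 5 contained 1767, or 96.6%. Even in decile 1 most WCS sites were in a region with another list.

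Sites of WCS had higher values the more lists shared their region. The median value was 6.05 with 0 other lists (n = 1829), 7.05 with 1 other list (n = 3716), 10.3 with 2 (n = 8813), 14.9 with 3 (n = 4436) and 20.2 with all 4 (n = 3668). The values also differed with the partner. Sites that WCS shared with MyoD alone had a median of 6.07, those shared with the chimera alone 6.40 and those shared with NeuroD2 alone 6.39, all near the WCS-alone median. Sites shared with WC alone had a median of 7.72 in the WCS list, with quartiles of 6.21 and 10.6. Sites shared with both WC and NeuroD2, the most frequent combination, had a median of 11.0.

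**Figure D1:**
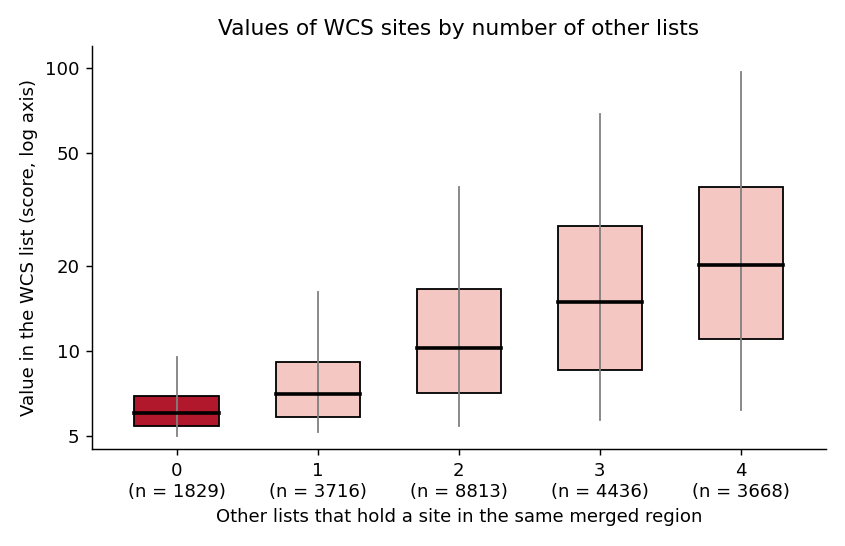
Values of all WCS sites in the WCS list (authors' score, log axis), grouped by how many of the other 4 lists hold a site in the same merged region. Boxes span the quartiles, thick lines are medians and thin lines run between percentiles 5 and 95; the median is 6.05 at 0 other lists and 20.2 at 4.

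With whole lists, the WCS-alone class also differed from the other single-list classes in having no site at a value of 20 or more. Its highest value was 19.8, and 5290 other WCS sites, 23.6% of the list, exceeded it. The highest value of a WC-alone site in the WC list was 80.2, exceeded by 2.77% of that list, and that of a chimera-alone site in the chimera list was 91.6, exceeded by 0.967%. At a value of 20 or more, 0 of 5188 WCS sites were held by WCS alone, which allows a share of up to 0.0578% by the limit of 3 sites and 0.0711% by the exact interval. At the same cutoff the share was 1.54% for WC (106 of 6901 sites; 1.26 to 1.85%) and 2.40% for the chimera (65 of 2713; 1.85 to 3.04%). Between 10 and 15 it was 1.64% for WCS (65 of 3955; 1.27 to 2.09%), 9.43% for WC (473 of 5017; 8.63 to 10.3%) and 10.3% for the chimera (278 of 2699; 9.18 to 11.5%). Between 5 and 6, at the foot of the lists, WCS had 26.3% (24.8 to 27.8%), WC 34.9% (33.3 to 36.5%) and the chimera 25.5% (23.6 to 27.4%), and the intervals of WCS and the chimera overlapped. A score of the same size need not mean the same enrichment in 2 lists, since depth and background are unknown, so shares at a common cutoff are set side by side only as a description. The WCS counts also depend on the length of the WC list. With it shortened to the 22462 sites of highest value, WCS alone held 1 of 5188 WCS sites at 20 or more. Between 10 and 15 it then held 110 of 3955.

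**Figure D2:**
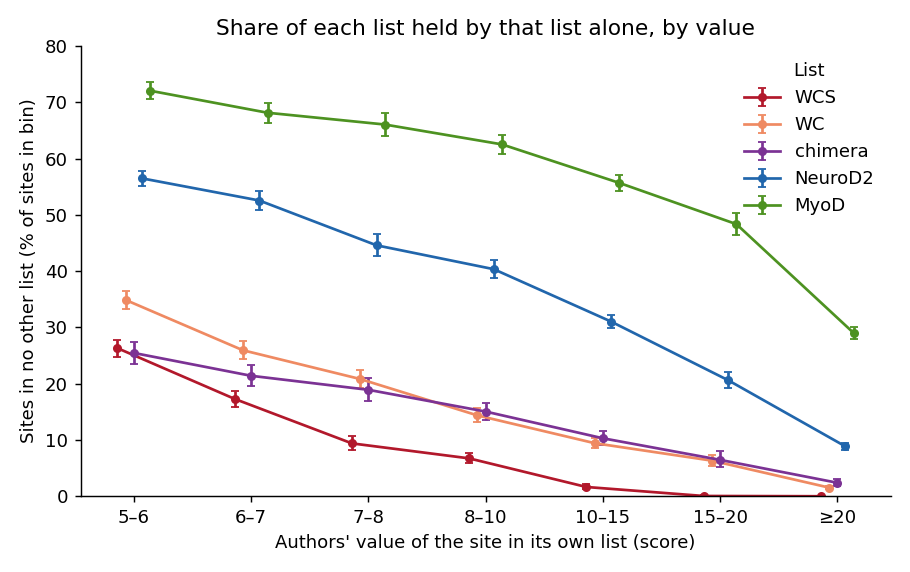
Share of each list's sites that lie in no other list (percent, vertical axis) in bins of the authors' value in that list (horizontal axis), with 95% exact Clopper-Pearson intervals. WCS declines to 1.64% between 10 and 15 and to 0 of 5188 sites at 20 or more, where WC is at 1.54% and the chimera at 2.40%.

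WC held most of the WCS sites of higher value that MyoD, NeuroD2 and the chimera lacked. Among WCS sites outside the lists of MyoD, NeuroD2 and the chimera, 54.1% were in the WC list (2155 of 3984). The rest of them are the WCS-alone sites by definition. With whole lists, this share therefore restates the counts of WCS-alone sites by value and is given as a description. That share was 33.1% at values of 5 to 6 (30.6 to 35.7%), 60.3% at 7 to 8 (55.6 to 64.8%), 86.1% at 10 to 15 (82.7 to 89.1%) and 99.2% at 15 to 20 (130 of 131 sites). At 20 or more WC held 81 of 81 such sites. In the converse direction, WC sites outside the same 3 lists were in the WCS list at 24.4% for values of 5 to 6 (22.3 to 26.5%), 48.3% at 10 to 15 (45.02 to 51.6%) and 55.1% at 20 or more (130 of 236; 48.5 to 61.5%). The WC list is the longer one. With it shortened to the 22462 sites of highest value, WC still held 80 of 81 of the WCS sites at 20 or more and 76.5% of those at 10 to 15 (72.4 to 80.3%). Of the sites at 20 or more outside those 3 lists, 106 of 236 WC sites were missing from the WCS list and 1 of 81 WCS sites from the shortened WC list.

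The sites of highest value within the class show how modest they were. The first, at chr9:23393417-23393801 (mm9), was 385 bp wide, had a value of 19.8 and ranked 5291 in the WCS list. Its nearest site of another list was a WC-alone site 3.29 kb away. The second, at chr9:110741906-110742422, had a value of 14.03 and stood 34.8 kb from the nearest site of another list. The third, at chr2:181221884-181222226, had a value of 13.9 and lay 8.77 kb from a region held by WCS, WC, NeuroD2 and MyoD. The fourth, at chr15:74055060-74055420, had a value of 13.7 and lay 1.02 kb from a region of WCS and NeuroD2.

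The next places were taken by chr8:70892240-70892635 (value 13.3), chr14:103861826-103862214 (13.1) and chr5:150031614-150031937 (12.7). All 3 had as their nearest neighbour a region that WCS itself shared with WC and NeuroD2, and the last also with the chimera, at 3.71, 9.13 and 4.02 kb. A value of 12.6 was shared by 4 regions, at chr3:102800935-102801326, chr12:3662631-3662994, and chr17:85656128-85656474 and chr17:44749702-44749982. The twelfth region, at chr7:6345149-6345440, had a value of 12.3. None of these 12 regions lay in a crowded window, defined as a window of 100 kb in which some list has at least 10 sites. The 12 were spread over 10 chromosomes. The 1829 sites took 88 distinct values, and 121 of them had the lowest value of the list, 5.03.

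WCS-alone sites were narrow, and most of the difference in width went with their low values. The median width was 233 bp for WCS-alone sites (quartiles 203 and 276 bp) and 339 bp for the other WCS sites (270 and 420 bp). Sites under 200 bp made up 21.1% of WCS-alone sites (386 of 1829; 19.3 to 23.05%) and 3.59% of the other WCS sites (741 of 20633; 3.34 to 3.85%), against 5.02% in the whole list. Within deciles of value the gap was small. In decile 1 the median was 201 bp for WCS-alone and 212 bp for other WCS sites, in decile 3 it was 253.5 and 262 bp, and in decile 5 it was 294 and 307 bp. With the other WCS sites weighted to the deciles of the WCS-alone sites, their median width was 245 bp and 14.2% were under 200 bp. A narrower site also has fewer bases with which to overlap another list, and the part of this in the choice of regions was not tested.

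**Figure D3:**
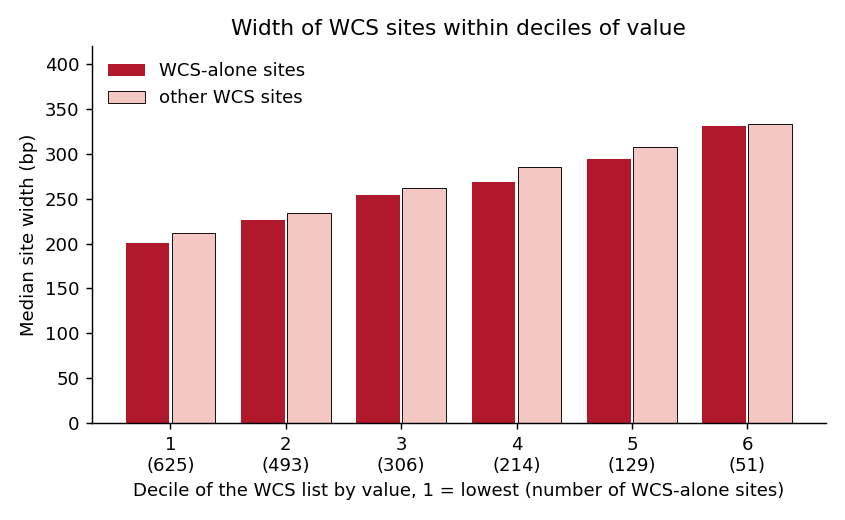
Median width in bp of WCS-alone sites (left bar of each pair) and other WCS sites (right bar) within the lowest 6 deciles of the WCS list by value, with the number of WCS-alone sites below. Widths increase with value in both classes, with medians of 201 and 212 bp in decile 1 and 294 and 307 bp in decile 5.

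The width of single-list sites differed between the lists. WC-alone sites had a median of 277 bp and chimera-alone sites 379 bp, against 349 bp in the whole WC list and 431 bp in the whole chimera list. Under 200 bp lay 5.35% of WC-alone sites (203 of 3795) and 0 of 1972 chimera-alone sites. The whole WC list had 1.53% of its sites under 200 bp and the whole WCS list 5.02%, so the lists themselves differed. The chimera list as a whole held no site under 200 bp, so the absence there belongs to that list and not to its single-list class. The widest WCS-alone site, 738 bp with a value of 10.8, lay at chr1:84990450-84991187. The second, 707 bp with a value of 8.91, lay at chr1:85280635-85281341. The third, 610 bp with a value of 9.87, lay at chr2:124230232-124230841.

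Outside their own merged region, WCS-alone sites lay farther from the nearest site of another list than the other WCS sites did. The other WCS sites overlap another list by the rule, and sites in their own region were left out of the distance. This distance uses the same coordinates as the choice of regions and is given as a description. The distance to the nearest site of another list in a different region had a median of 8.13 kb for WCS-alone sites (quartiles 2.16 and 23.03 kb) and 4.76 kb for the other WCS sites (1.25 and 13.9 kb). With the other sites weighted to the same deciles of value the median was 5.69 kb. Within 1 kb lay 16.7% of WCS-alone sites (305 of 1829; 14.99 to 18.5%), and 20.003% of the other sites by the same weighting, against 21.4% in the whole list. Among the single-list classes the median was 8.13 kb for WCS-alone, 8.39 kb for WC-alone, 7.59 kb for chimera-alone, 9.22 kb for NeuroD2-alone and 9.69 kb for MyoD-alone sites.

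**Figure D4:**
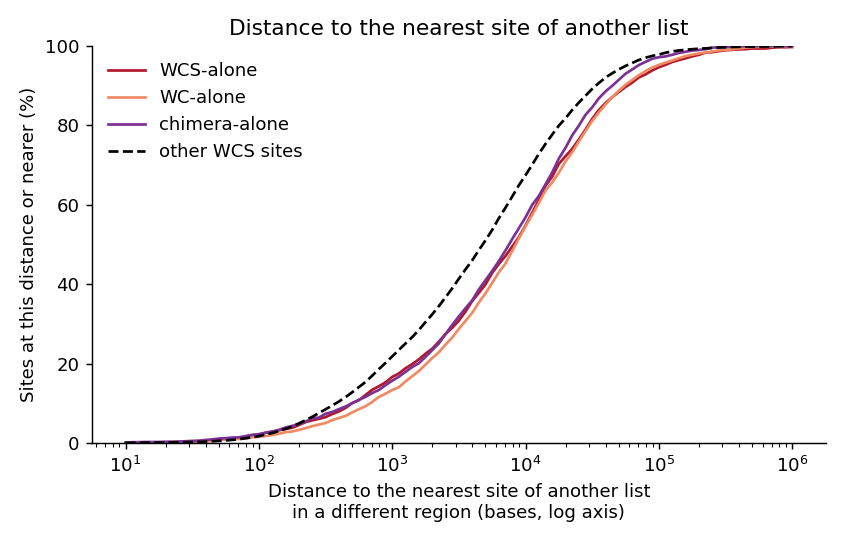
Cumulative share of sites (percent) by distance to the nearest site of another list in a different merged region (bases, log axis) for WCS-alone, WC-alone and chimera-alone sites and for the other WCS sites. The 3 single-list curves plotted run close together with medians of 8.13, 8.39 and 7.59 kb. At the median they lie to the right of the other WCS sites with 4.76 kb. At 100 bases the order differs: WCS-alone is at 2.13%, WC-alone at 1.66%, chimera-alone at 2.28% and the other WCS sites at 1.77%.

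A gap of at most 100 bases separated 39 WCS-alone sites, or 2.13%, from a site of another list. A further 146, or 7.98%, had a gap of over 100 and at most 500 bases. For the other WCS sites, measured to a different region, these shares were 1.77% and 11.0%. The nearest WCS-alone site was at chr5:14997172-14997530 (value 10.3), 4 bases from a WC site. It was followed by chr11:35823415-35823650 (value 7.46), 7 bases from a WC-alone site, and chr9:40530874-40531245 (value 7.81), 16 bases from a WC site. Just on the other side of the rule, a WCS site at chr15:99771782-99772039 (value 6.07) overlapped a MyoD site by 1 base. Sites at chr11:81674319-81674537 (value 6.74) and at chr3:90427632-90427878 (value 6.05) were overlapped by at most 7 and 12 bases. Only 11 of the 20633 other WCS sites had a largest overlap under 50 bases, and the median of the largest overlap was 325 bases.

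Of the 305 WCS-alone sites within 1 kb of another list, 127 had a neighbouring region that also held a WCS site and 178 had one that did not. The most frequent neighbours were MyoD-alone regions, at 52 sites, NeuroD2-alone regions, at 46, and regions of WCS, WC and NeuroD2, at 36. MyoD-alone and NeuroD2-alone regions are common everywhere, with 13371 and 10412 of the 60136 merged regions. The neighbour counts are a description, and no preference for a kind of neighbour was tested. Over all 1829, the nearest site of another list was a WC site for 563, or 30.8%, a NeuroD2 site for 527, or 28.8%, a MyoD site for 489, or 26.7%, and a chimera site for 250, or 13.7%. These numbers also depend on the lengths of the lists, of which NeuroD2's is the longest and the chimera's the shortest. The lists hold 27045 WC, 31458 NeuroD2, 24935 MyoD and 14375 chimera sites. At the far end, 98 sites, or 5.36%, were over 100 kb from any site of another list. Of the other WCS sites, 2.17% were that far from another list in a different region. The MyoD and chimera lists hold no sites on X, so distances there run to WC and NeuroD2 sites only. The most isolated WCS-alone sites lay at chr1:111624818-111625008, 1682 kb from a MyoD-alone region, at chr12:22817091-22817283 at 1300.3 kb, and at chrX:41257553-41257748 at 1204 kb. Their values were 5.50, 5.18 and 5.86.

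Most WCS-alone regions were scattered along the genome, and a few places held several. They fell into 1642 windows of 100 kb, of which 1504 held 1. A total of 25 windows held 3 or more, with 99 regions or 5.41% of the class, in windows that contained 1.54% of WCS sites; the windows were picked by that number, so this is a description. The richest single window was chr14:43900001-44000000, with 7 WCS-alone regions among 19 WCS, 12 WC, 3 chimera, 9 NeuroD2 and 0 MyoD sites. Windows with 6 each began at 84900001 and 85300001 on chromosome 1, at 19600001 on chromosome 8 and at 44000001 on chromosome 14. The window at 84900001 stands out within this group in that 6 of its 7 WCS sites were WCS-alone.

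Adjacent windows of this kind formed 3 longer stretches, which were singled out after their values were seen. At chr1:84900001-85400000, 24 of 71 WCS sites were WCS-alone, and the same 500 kb held 57 WC, 11 chimera, 85 NeuroD2 and 4 MyoD sites. At chr8:19600001-20000000, 17 of 154 WCS sites were WCS-alone, beside 141 WC, 21 chimera, 167 NeuroD2 and 11 MyoD sites. At chr14:43900001-44100000, 13 of 34 WCS sites were WCS-alone, beside 25 WC, 5 chimera, 10 NeuroD2 and 1 MyoD sites. The 2 widest WCS-alone sites lay within the stretch on chromosome 1. Whether reads map uniquely in these places was not tested. Crowded windows held 7.60% of WCS-alone regions (139 of 1829; 6.43 to 8.91%) and 8.32% of the other WCS sites at the same deciles of value, against 10.5% in the whole WCS list, so the share was no higher among WCS-alone regions.

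By chromosome, the share of WCS sites held by WCS alone was highest on X and lowest on chromosome 11. It was 13.8% on X (50 of 362 sites; 10.4 to 17.8%), against 8.05% on the 19 autosomes (1779 of 22100; 7.69 to 8.42%) and 6.51% on chromosome 11 (109 of 1675; 5.37 to 7.80%). The MyoD and chimera lists hold 0 sites on X, so only the WC and NeuroD2 lists could overlap a WCS site there. With those as the only comparison the share on the autosomes was 10.8% (10.4 to 11.2%), and the interval of X includes it. NeuroD2-alone sites were also more frequent on X, at 54.0%, than on the autosomes, at 32.7%. The share of WC sites held by WC alone was 18.1% on X (14.5 to 22.2%) and 14.0% on the autosomes (13.6 to 14.4%). The 50 regions on X had a median value of 6.21, a median width of 215.5 bp and a median distance of 89.7 kb to the nearest site of another list. The 1779 autosomal regions had medians of 6.05, 234 bp and 7.88 kb.

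Among the autosomes, chromosome 14 had 10.9% (86 of 789 sites; 8.81 to 13.3%), chromosome 16 10.3% (71 of 688; 8.15 to 12.8%) and chromosome 1 9.89% (155 of 1567; 8.46 to 11.5%). With the windows of 3 or more WCS-alone regions left out, chromosome 14 had 9.32%, chromosome 16 9.96% and chromosome 1 8.39%, against 7.82% for the whole list. Without those windows the intervals of chromosome 14 (7.34 to 11.6%), chromosome 16 (7.81 to 12.5%) and chromosome 1 (7.03 to 9.92%) include the value of the whole list. The windows were picked by their number of WCS-alone regions, so a lower share without them follows from that choice. For chromosome 16 the lower bound, 8.15% with the windows and 7.81% without, was next to the value of the whole list both times (8.14 and 7.82%). In absolute number chromosome 1 held the most WCS-alone regions, 155, although chromosome 2 held the most WCS sites, 1882, of which 131 were WCS-alone.

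**Figure D5:**
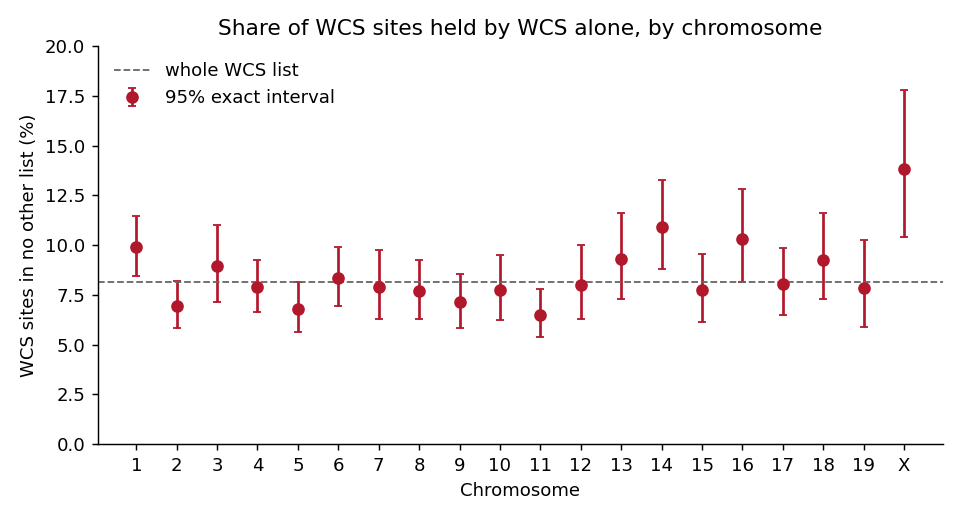
Share of WCS sites held by WCS alone (percent) on each chromosome with 95% exact Clopper-Pearson intervals; the dashed line is the whole WCS list at 8.14%. X is highest at 13.8% and chromosome 11 lowest at 6.51%, and most intervals include the dashed line.

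Beside the WC-alone regions, the class most like it by origin, the WCS-alone class was smaller, lower in rank within its own list and narrower. Median widths were 233 bp for WCS-alone and 277 bp for WC-alone sites. The whole WCS list was also narrower than the whole WC list, with medians of 329 and 349 bp. The median site stood at percentile 15.8 of the WCS list for WCS-alone and at percentile 21.8 of the WC list for WC-alone sites, with values of 6.05 and 6.68. A value of 10 or more was reached by 66 WCS-alone sites, or 3.61%, and by 744 WC-alone sites, or 19.6%. X held 2.73% of WCS-alone (2.04 to 3.59%) and 1.92% of WC-alone regions (1.51 to 2.41%), against 1.61% of all WCS and 1.49% of all WC sites. Of the WCS sites shared with WC alone, 4.59% lay on X (3.75 to 5.56%). The MyoD and chimera lists hold no sites on X, so only classes without them can lie there, and the whole lists include the others. Crowded windows held 7.60% of WCS-alone (6.43 to 8.91%) and 5.11% of WC-alone regions (4.43 to 5.86%), against 10.5% of all WCS and 9.41% of all WC sites, so both classes lay below their own list. The regions of both mutants together, with no other list, had a median of 7.72 in the WCS list and 8.05 in the WC list, each above the single-list class of the same list. These comparisons are descriptions of single lists.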

How the data were processed

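The data are 5 site lists that the authors deposited, 1 for each transduced group, from 10 of 12 ChIP-seq libraries. Per the submitters' processing notes the build was mm9 and the tools CASAVA 1.8.2 and BWA 0.7.5; the sources used here name no peak caller, background or filter and do not say how both libraries were combined. The score that the authors deposited for each site has no named unit. All scores exceed 5 and 59 are infinite. They were used to rank and bin sites within a list; scores and shares at a common cutoff from different lists are set side by side as descriptions.

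Sites sharing at least 1 base were merged. Coordinates are 1-based. Deciles were formed by value, with ties ordered by width and position. Distances run to the nearest site of another list in a different region. The limit for a count of 0 is 3 sites of the total. No p-value was computed. The members, lists and measures were chosen with earlier results of these data known. Named regions are the 12 of highest value, the 3 widest, the 3 nearest to and the 3 farthest from another list, the 3 sites of least overlap outside the class, the leading 100 kb windows and the extreme chromosomes. A ranking by number of sites was void, since each region has 1. E-box and gene results need mm9 sequence or annotation and were not run. Another 15 settings were tried, 2 of them chosen after seeing the data. Merging and distances were tested on simulated lists and returned each known answer. Simulated sites shared a centre or lay far apart on a single chromosome, so overlaps of a few bases and small gaps were not tried. Software was Python 3.11.15 with numpy 2.4.6, pandas 2.3.3, matplotlib 3.10.9 and scipy 1.17.1.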

Additional observations from a re-analysis of the deposited data

How the results depend on the processing

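No paired analysis was possible because each group has 1 list that stands for both libraries. E-box shares were not run. No alternative turned a direction: WCS-alone sites had lower values and smaller widths than the other WCS sites under all 15. Each alternative used lists cut by the score and a class set by overlap, so these directions were not independent of the choice of regions. The number of regions (1829) left the range of 1.5 times with the top 50% of every list (846), the top 50% of the WCS list alone (61), without the NeuroD2 list (3025) and without the WC list (4012). The share of WCS sites (8.14%) was 7.30% within 500 bases, 6.76% within 1000 bases, 7.53% with the top 50% of every list, 0.543% with the top 50% of WCS, 12.3% with equal lists, 7.09% with widths of 200 to 2000 bp, 10.8% without MyoD and chimera, 13.5% without NeuroD2, 17.9% without WC and 10.4% with WC shortened. The difference in median value, WCS-alone minus other (−4.73), was −8.38 with the top 50% of every list, −7.90 with the top 50% of WCS, −7.45 with equal lists, −4.59 without crowded windows, −5.11 without MyoD and chimera, −5.19 without NeuroD2 and −5.00 with WC shortened. The difference in median width (−106 bp) was −69 bp with the top 50% of every list, −60 bp with the top 50% of WCS, −76 bp with equal lists, −97 bp with widths of 200 to 2000 bp, −102 bp without crowded windows and −90 bp without WC. The share within 1 kb of another list (16.7%) was 18.7% with 50% overlap, 14.8% with sites within 100 bases joined, 7.15% within 500 bases, 0% within 1000 bases, 12.5% with the top 50% of every list, 21.3% with the top 50% of WCS, 11.97% with equal lists, 13.2% without crowded windows, 12.6% without MyoD and chimera, 14.5% without NeuroD2 and 14.6% without windows of 3 or more WCS-alone regions; joining fixes this by construction. The share on X (2.73%) was 3.66% with the top 50% of every list and 3.79% without WC. Without MyoD and chimera, the lists with no site on X, it was 2.05%, just inside the interval of the main setting. The share in crowded windows (7.60%) was 5.26% within 500 bases, 3.50% within 1000 bases, 8.98% with the top 50% of every list, 14.8% with the top 50% of WCS, 9.36% with equal lists, 9.97% without WC and 4.28% without windows of 3 or more WCS-alone regions. Halving the WCS list removes the low values that hold the class. The shortened WC list and the omission of windows with 3 or more WCS-alone regions were chosen after seeing the data. The causes of the other changes were not tested. With no depth, weak binding by another protein below its list's limit cannot be seen.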
